A study of Homo sapiens with 8 samples.

Results

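The genes described here are 10 members of the NF-kB pathway, picked by symbol from the deposited counts, which list 58735 genes. They comprise 4 transcription factor subunits (NFKB1, NFKB2, RELA and RELB), 2 feedback inhibitors (NFKBIA and TNFAIP3), 2 signalling proteins that are also targets (BIRC3 and TRAF1) and 2 effector targets (TNF and ICAM1). All 10 passed the filter on low counts and were among the 15135 genes tested. RNA was sequenced from EPC2-hTERT, a human esophageal epithelial line immortalised with telomerase, in 2 groups of 4 libraries. The control group (CTRL) has the genotype label Control, and the other group (miR-155OE) is a stable line made with a lentivirus that overexpresses miR-155-5p. Cells of both groups grew on inserts with pores of 0.4 µm for 2 days and in 1.8 mM calcium for 5 days before they were raised to the air-liquid interface, where this line stratifies. The labels do not give the time at the interface, whether either line was 1 clone, what vector the control cells carried, or whether the 4 libraries of a group were separate cultures, so the p-values measure the spread between these libraries, which may be technical.

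NF-kB is a family of dimeric transcription factors that sit in the cytoplasm of a resting cell bound to I-kB inhibitors. In the canonical route a kinase complex marks I-kB for destruction and frees dimers of the NFKB1 product with RELA, and in the noncanonical route processing of the NFKB2 product frees dimers with RELB. The freed dimers switch on genes of inflammation and survival, and also their own brakes: NFKBIA encodes the I-kB that returns the dimers to the cytoplasm, and TNFAIP3 encodes A20, an enzyme that edits ubiquitin chains on the upstream signalling complex. The levels of these brakes are for that reason commonly read as a sign of recent NF-kB activity. In stratified squamous epithelium the pathway takes part in the response to microbes, cytokines and wounding.

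A pair of sequence features bears on the comparison: the seed of the overexpressed microRNA, with its matches in the members, and the kB motif, to which NF-kB dimers bind, in their promoters. The mature microRNA is shown first, from RefSeq (GRCh38.p14, chr21:25573983-25574006, plus strand), with its seed, bases 2 to 8, in capitals.

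miR-155-5p: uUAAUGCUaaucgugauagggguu

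The complement of this seed, AGCATTA, was searched in 1 3′ UTR per tested gene, the longest in GENCODE 29 (GRCh38), together with its shorter form that leaves out the first base and is followed by A. Of the 10 members, 2 had a site, RELA and BIRC3, against 17.6% of the 12511 genes with such a UTR. Of genes with UTRs within 10% of the length of theirs, 19.1% (RELA, 1986 bases) and 21.3% (BIRC3, 2301 bases) had a site. Both sites are shown with the matched bases in capitals, RELA at chr11:65654164-65654193 (minus strand) and BIRC3 at chr11:102337346-102337375 (plus strand).

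RELA: tgcttaagcagaAGCATTAActtctctgga

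BIRC3: aatcaaaatttcAGCATTAttgaaattgta

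The kB consensus motif was searched as GGGRNWYYCC, where R is A or G, W is A or T, Y is C or T and N is any base. Exact matches were taken on both strands of RefSeq promoter windows of 300 bases, from 250 before to 50 after each annotated start. Of the 9 members with a window, 5 held the motif in at least 1 of their windows: NFKB1, NFKB2, NFKBIA, TNFAIP3 and BIRC3. Among all tested genes with a window the share was 8.91%, and 5.91% of all 35116 windows held it. RELA, TNF, ICAM1 and TRAF1 had no match in theirs, and RELB had no window. A site that departs from the consensus or lies outside the window would be missed, so no match does not mean no kB site. NFKB2 held the motif in 2 of its 3 windows, at 5 positions, some of them overlapping. The stretches below carry the motifs of the other members, in capitals, on the strand of the gene (GRCh38.p14). They are NFKB1 at chr4:102501229-102501328 (plus strand), NFKBIA at chr14:35404750-35404849 (minus strand), BIRC3 at chr11:102317265-102317368 (plus strand) and the 30 bases of TNFAIP3 at chr6:137867188-137867217 (plus strand). In NFKBIA the motif lay 81 to 72 bases before the annotated start, and in TNFAIP3 a pair of motifs lay 67 to 58 and 55 to 46 bases before the RefSeq start, inside the gene as the count file bounds it.

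NFKB1: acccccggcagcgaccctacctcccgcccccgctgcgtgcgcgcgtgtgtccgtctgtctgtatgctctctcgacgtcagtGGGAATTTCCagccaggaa

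NFKBIA: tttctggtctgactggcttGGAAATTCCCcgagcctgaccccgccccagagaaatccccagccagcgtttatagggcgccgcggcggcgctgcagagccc

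TNFAIP3: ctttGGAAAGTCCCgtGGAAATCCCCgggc

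BIRC3: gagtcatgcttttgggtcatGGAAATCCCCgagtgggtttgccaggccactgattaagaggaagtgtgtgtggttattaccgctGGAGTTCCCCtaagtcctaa

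The libraries held from 33443635 to 52746852 counts. MIR155HG and MIR155, the host gene and hairpin gene of the microRNA, were at 0 reads in every library, where the limit of 3 reads is 0.0569 to 0.0897 CPM (counts scaled to library size), so these counts give no check of the group labels. All 10 esophageal keratinocyte markers listed were tested, with a summed level of 21370 to 26550 CPM in CTRL and 19010 to 24000 CPM in miR-155OE. Of 22 immune cell markers 8 had 0 reads, CD3D, CD2 and TYROBP among them, and PTPRC, the marker of all leukocytes, had 1 read in all. Their sum was 10.2 to 11.2 CPM in CTRL and 10.7 to 17.7 CPM in miR-155OE, most of it CD14 (8.72 ± 0.970 CPM in CTRL, 12.01 ± 2.98 CPM in miR-155OE, n = 4 each, SD). The 7 endothelial markers summed to 2.02 to 3.12 CPM in CTRL and 1.44 to 3.00 CPM in miR-155OE, and the 7 fibroblast markers, 4 of them at 0 reads, to 92.8 to 145 and 98.2 to 221 CPM, most of it COL1A1. In these bulk samples fewer cells of a type and less RNA per cell cannot be told apart.

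Across the 8 libraries the members fell into an abundant and a scarce set. On a scale per length (TPM, the transcript share scaled to a fixed total), NFKBIA was highest at 157 ± 22.9 TPM and RELA followed at 52.1 ± 2.61 TPM (SD, n = 8 each). TNFAIP3 (17.2 ± 5.57 TPM), NFKB1 (16.8 ± 1.97 TPM), NFKB2 (14.5 ± 1.40 TPM) and RELB (7.74 ± 2.18 TPM) came next (SD, n = 8 each). The ranges of NFKBIA, RELA and TNFAIP3 did not overlap, whereas those of TNFAIP3, NFKB1, NFKB2 and RELB overlapped between neighbours, and TNFAIP3 exceeded NFKB1 in only 2 of 8 libraries. TRAF1 (0.589 ± 0.154 TPM), TNF (0.561 ± 0.152 TPM), BIRC3 (0.560 ± 0.0985 TPM) and ICAM1 (0.285 ± 0.123 TPM) were far lower, with overlapping ranges (SD, n = 8 each). The subunits and inhibitors were thus well counted, whereas TNF had 98 and ICAM1 had 109 reads in all 8 libraries together.

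**Figure D1:**
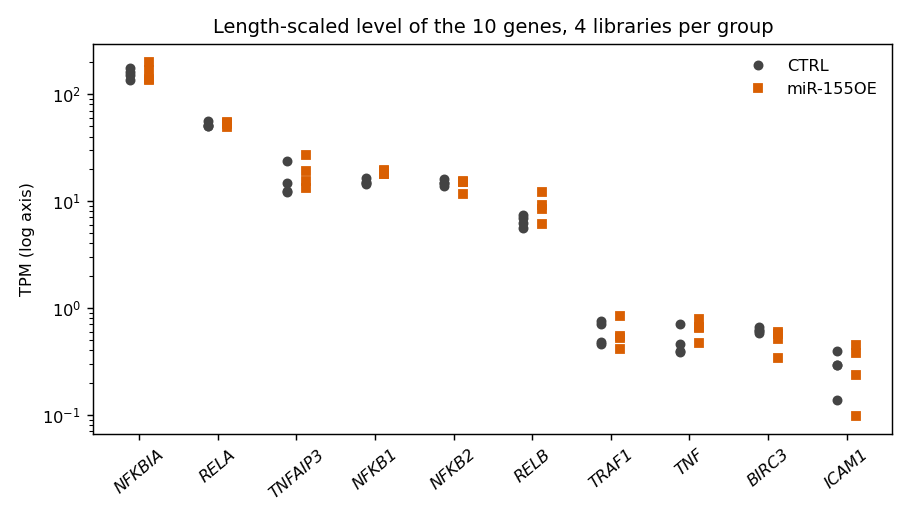
Length-scaled level (TPM, log axis) of the 10 genes, ordered by their mean over all libraries; circles are the 4 CTRL and squares the 4 miR-155OE libraries. RELB and the genes above it lie over 5 TPM in every library, and TRAF1, TNF, BIRC3 and ICAM1 lie under 1 TPM in every library.

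The comparison of miR-155OE with CTRL describes the pathway in esophageal epithelial lines with and without the miR-155-5p lentivirus. Each group is its own line, so the microRNA cannot be told apart from any other difference between the lines. NFKB1 was the member with the smallest p under either fit, and the only 1 of the 10 whose groups did not overlap. Over all genes the groups did not overlap, in either direction, for 11.4%, so 1 of 10 is near that share. By edgeR's quasi-likelihood test on group alone, 0 of the 10 members passed an adjusted p of 0.05, where 3.22% of all genes did, and 1 had an unadjusted p under 0.05, where 19.3% of all genes had. With the replicate number as a block, 1 of the 10 passed, NFKB1, where 12.6% of all genes passed and 7.43% passed as higher in miR-155OE. The median log2 fold change of the members was 0.03, beside −0.01 over all genes.

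NFKB1 (ENSG00000109320, chr4:102501329-102617302, plus strand, GRCh38 as for all genes) encodes the precursor of the small DNA-binding subunit of the canonical dimer. Its level was 35.5, 31.3, 33.4 and 32.6 CPM in CTRL libraries 1 to 4 and 37.8, 37.8, 42.5 and 41.6 CPM in miR-155OE libraries 1 to 4. Every miR-155OE library lay above every CTRL library, as for 6.16% of all genes, and within same-numbered pairs the log2 difference was 0.09, 0.27, 0.35 and 0.35. The fitted difference was 1.203-fold (95% interval 1.08 to 1.34; log2 fold change 0.27, SE 0.07), and it did not pass on group alone (edgeR adjusted p = 0.0653). It rose under the block (log2 fold change 0.27 with SE 0.06, adjusted p = 0.0271 in edgeR), but in the blocked fits without each of the 4 numbers in turn the adjusted p was 0.0504 to 0.107. DESeq2 on group alone called it too (log2 fold change 0.27, adjusted p = 0.0171), as it called 8.08% of genes. It was also called in the authors' deposited table (log2 fold change 0.27, adjusted p = 0.0250), which calls 4.73% of its genes. The blocked fit that called NFKB1 called 12.6% of all genes, 7.43% as higher in miR-155OE. In it 4 of the 10 keratinocyte markers fell (KRT4, KRT13, SPRR3 and CRNN), while IVL (log2 fold change 0.05) and TGM1 (−0.07) of that list did not pass. Outside the list the differentiation genes KRT1 (2.68), KRT10 (1.06), DSG1 (1.55) and KRTDAP (1.44) rose. They were picked after their values were seen and do not stand for all such genes. CD14 (log2 fold change 0.44) of the immune list and COL1A1 (0.40) of the fibroblast list rose as well, each the only gene of its list that passed. Of the same lists PTPRC had 1 read in all, and COL1A2, COL3A1, LUM and DCN had 0 reads, so these rises do not show a cell type. The part of these marker and differentiation genes in the NFKB1 result was not tested.

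RELA (ENSG00000173039, chr11:65653596-65663094, minus strand), the transactivating subunit of the canonical dimer, had the narrowest interval of the 10 apart from NFKB1, and it was centred near 0. It was at 95.5, 93.8, 99.0 and 108 CPM in CTRL, against 90.9, 95.5, 101.5 and 106 CPM in miR-155OE. The groups overlapped, and the fold was 0.995 (95% interval 0.891 to 1.11; log2 fold change −0.01 with SE 0.07, adjusted p = 0.970 in edgeR). On the log2 scale the interval, −0.17 to 0.15, leaves out a difference of the size fitted for NFKB1. RELA carries the eight-base match to the seed shown above. It overlaps the gene AP001362.2 (355 reads against 30258) only at its end, chr11:65663086-65663094. Reads within that short stretch cannot be told apart. The level of NFKB1 per length relative to RELA was 0.293 ± 0.0248 in CTRL against 0.354 ± 0.0124 in miR-155OE (n = 4 each, SD), and the ranges, 0.264 to 0.324 and 0.341 to 0.366, did not overlap. This ratio restates the separation of NFKB1, since RELA was nearly level, and the ratios of NFKB2, RELB, NFKBIA and TNFAIP3 to RELA overlapped between the groups.

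NFKB2 and RELB, the pair of the noncanonical route, both overlapped between the groups, RELB because of 1 library. NFKB2 (ENSG00000077150, chr10:102394110-102402529, plus strand) was at 22.9, 25.1, 23.2 and 21.9 CPM in CTRL, against 23.6, 21.3, 17.8 and 24.9 CPM in miR-155OE. Its groups overlapped, with miR-155OE library 3 the lowest of all 8, and it did not pass (log2 fold change −0.09 with SE 0.10, adjusted p = 0.713 in edgeR). RELB (ENSG00000104856, chr19:45001430-45038198, plus strand) was at 7.31, 6.46, 6.01 and 7.92 CPM in CTRL, against 8.80, 5.85, 9.61 and 13.8 CPM in miR-155OE. Of the miR-155OE libraries 1, 3 and 4 lay above all CTRL libraries and library 2 lay below them all, and the pairs differed by 0.27, −0.14, 0.68 and 0.80 on the log2 scale. The RELB difference did not pass on group alone (log2 fold change 0.46 with SE 0.22, adjusted p = 0.286 in edgeR) or with the block (0.42, SE 0.15, edgeR adjusted p = 0.101). Without miR-155OE replicate 2 it passed (log2 fold change 0.64 with SE 0.17, adjusted p = 0.0452 in edgeR), in a fit that called 8.23% of genes, and without miR-155OE replicate 4 it was 0.23 (edgeR adjusted p = 0.565). Without number 2 of both groups the blocked fit called it as well (0.59, SE 0.13, edgeR adjusted p = 0.0186), among 13.4% of genes. Number 2 is the pair in which RELB was not higher, and without numbers 1, 3 and 4 in turn the blocked fit did not call it (0.47, 0.34 and 0.28, with edgeR adjusted p = 0.208, 0.233 and 0.353).

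**Figure D2:**
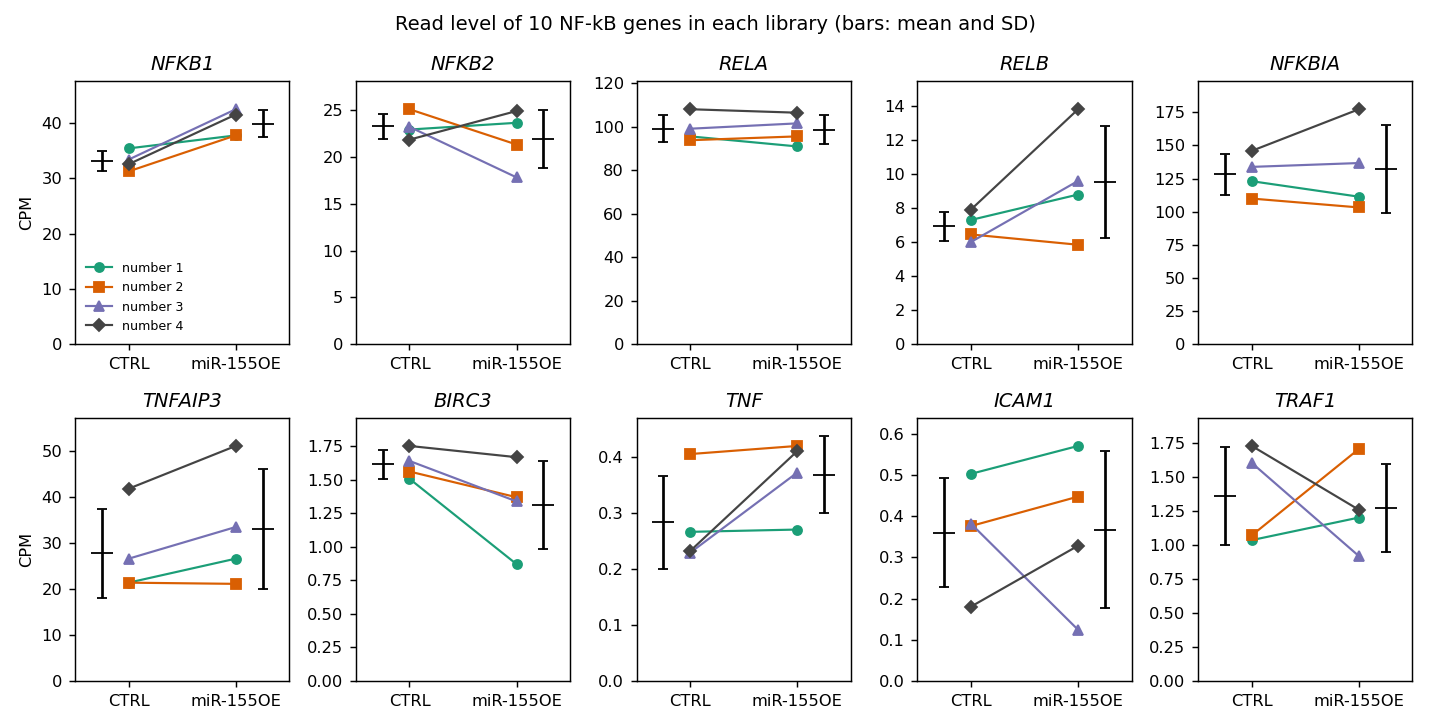
CPM of each gene in each library, from 0, with a line joining libraries of the same number and the group mean with its SD beside the points (n = 4 per group). The groups of NFKB1 lie apart, whereas in TNFAIP3 and NFKBIA the distance between numbers exceeds that between groups.

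In the feedback inhibitors the library number took more of the variation than the group did, as it also did at the median over all genes (48.2% against 17.1%). TNFAIP3 (ENSG00000118503, chr6:137867188-137883312, plus strand) was at 21.4, 21.4, 26.6 and 41.9 CPM in CTRL, against 26.6, 21.1, 33.5 and 51.2 CPM in miR-155OE. Number 4 was the highest in both groups, and the highest was 1.96 times the lowest within CTRL and 2.42 times within miR-155OE. Beside that spread the difference between the groups was small and did not pass on group alone (log2 fold change 0.25 with SE 0.28, adjusted p = 0.687 in edgeR). Same-numbered pairs differed by 0.32, −0.02, 0.33 and 0.29 on the log2 scale, so that 3 of 4 pairs were higher in miR-155OE by like amounts. With the block the SE fell to 0.07 and TNFAIP3 still did not pass (log2 fold change 0.23, edgeR adjusted p = 0.0695), and of the blocked fits without 1 number it passed in the fit without number 2, the pair that was not higher (0.31, edgeR adjusted p = 0.0183). Without numbers 1, 3 and 4 in turn it did not (0.21, 0.20 and 0.22, with edgeR adjusted p = 0.260, 0.162 and 0.214). On group alone the value was −0.03 without miR-155OE replicate 4. TNFAIP3 overlaps the antisense gene AL357060.1 (277 reads against 9338), and no source used here says that reads were counted by strand, so reads in the overlap cannot be told apart.

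NFKBIA (ENSG00000100906, chr14:35401511-35404749, minus strand) also followed the numbers, and its difference between groups did not pass. It was at 123, 109.9, 134 and 146 CPM in CTRL, against 111, 103, 137 and 177 CPM in miR-155OE. Number 2 was lowest and number 4 highest in both groups, and the pairs differed by −0.14, −0.09, 0.03 and 0.28 on the log2 scale. The log2 fold change was 0.04 (SE 0.16, adjusted p = 0.916 in edgeR) on group alone and 0.02 (SE 0.07, edgeR adjusted p = 0.889) with the block, where the 95% interval ran from −0.14 to 0.18. On group alone the interval was −0.31 to 0.39, which includes a difference of the size fitted for NFKB1.

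**Figure D3:**
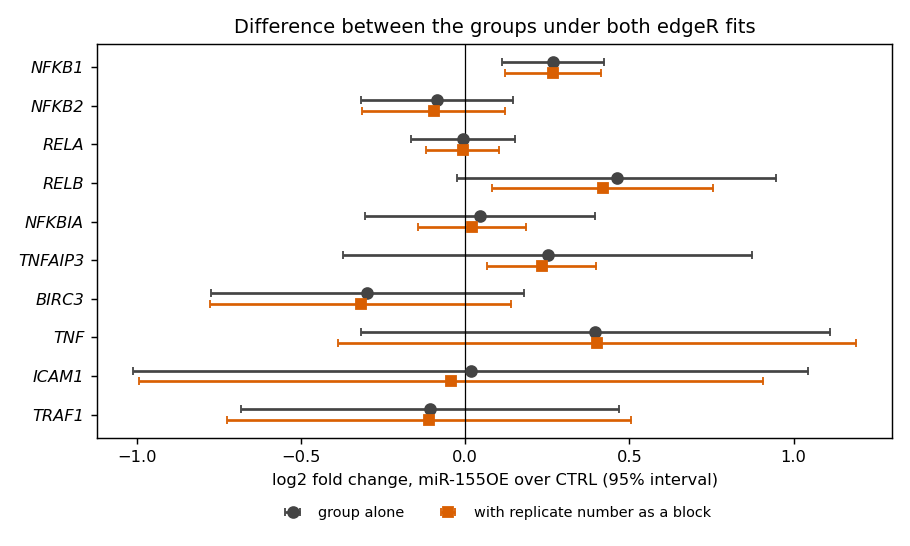
Log2 fold change of miR-155OE over CTRL for each gene with its 95% interval, from edgeR on group alone (circles) and with the replicate number as a block (squares). The interval of NFKB1 lies above 0 in both fits, the block narrows those of RELB, NFKBIA and TNFAIP3, and those of TNF and ICAM1 are wide in both.

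BIRC3 and TRAF1 bind each other at tumour necrosis factor receptors, BIRC3 as a ubiquitin ligase and TRAF1 as an adaptor. BIRC3 (ENSG00000023445, chr11:102317450-102339403, plus strand) had 51, 54, 86 and 68 reads in CTRL (1.51, 1.56, 1.64 and 1.75 CPM) and 29, 49, 54 and 61 reads in miR-155OE (0.871, 1.37, 1.34 and 1.67 CPM). It was lower in 4 of 4 same-numbered pairs, with log2 differences of −0.79, −0.19, −0.29 and −0.07, but the groups overlapped and it did not pass (log2 fold change −0.30 with SE 0.22, adjusted p = 0.499 in edgeR, and −0.32, SE 0.20, adjusted p = 0.351 with the block). TRAF1 (ENSG00000056558, chr9:120902393-120929173, minus strand) had 35, 37, 84 and 67 reads in CTRL and 40, 61, 37 and 46 in miR-155OE. It was higher in miR-155OE for numbers 1 and 2 and lower for numbers 3 and 4, with a log2 fold change of −0.11 (adjusted p = 0.869 in edgeR, SE 0.26).

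The cytokine TNF (ENSG00000232810, chr6:31575567-31578336, plus strand), an activator and a product of the pathway, had 9, 14, 12 and 9 reads in CTRL and 9, 15, 15 and 15 in miR-155OE. Its CPM was higher in 4 of 4 pairs, by 0.02, 0.05, 0.70 and 0.82 on the log2 scale, but its groups overlapped. In pairs 1 and 2 the reads were 9 against 9 and 14 against 15, so these differences are within counting error. No share of all genes with 4 of 4 pairs in the same direction is given here, for TNF or for BIRC3. Its fold of 1.32 (95% interval 0.802 to 2.16, edgeR adjusted p = 0.554) did not pass. ICAM1 (ENSG00000090339, chr19:10270835-10286615, plus strand), the ligand of leukocyte integrins, had 17, 13, 20 and 7 reads in CTRL and 19, 16, 5 and 12 in miR-155OE. Its fold was 1.01 with a 95% interval of 0.496 to 2.06 (edgeR adjusted p = 0.989), which includes a change by a factor of 2 in either direction. ICAM1 overlaps 2 antisense genes, AC011511.2 (62 reads) and AC011511.5 (4 reads), whose reads cannot be told apart from its own in the overlap.

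The share of each gene's variation in log2 CPM that went with number and with group was then computed for all 10. The number has more degrees of freedom than the group, which raises its share in any gene, so each share is set beside its own median. The number took 93.1% in RELA, 90.9% in TNFAIP3 and 88.1% in NFKBIA, beside a median of 48.2% over all genes tested, and the group took 77.5% in NFKB1, beside a median of 17.1%. In RELA the variation itself was small, with 0.25 on the log2 scale between its lowest and highest library. A joint test of the number in the blocked edgeR fit, chosen after these values were seen, called 2 of the 10 members, TNFAIP3 (edgeR adjusted p = 0.00292) and NFKBIA (adjusted p = 0.0347), where 5.15% of all genes were called. RELB (adjusted p = 0.178) and RELA (adjusted p = 0.2498) did not pass it. The highest library was number 4 in both groups for 5 members, RELA, RELB, NFKBIA, TNFAIP3 and BIRC3, as for 10.7% of all genes tested. The labels do not say what a number shares, and no cause of the difference between numbers was tested.

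**Figure D4:**
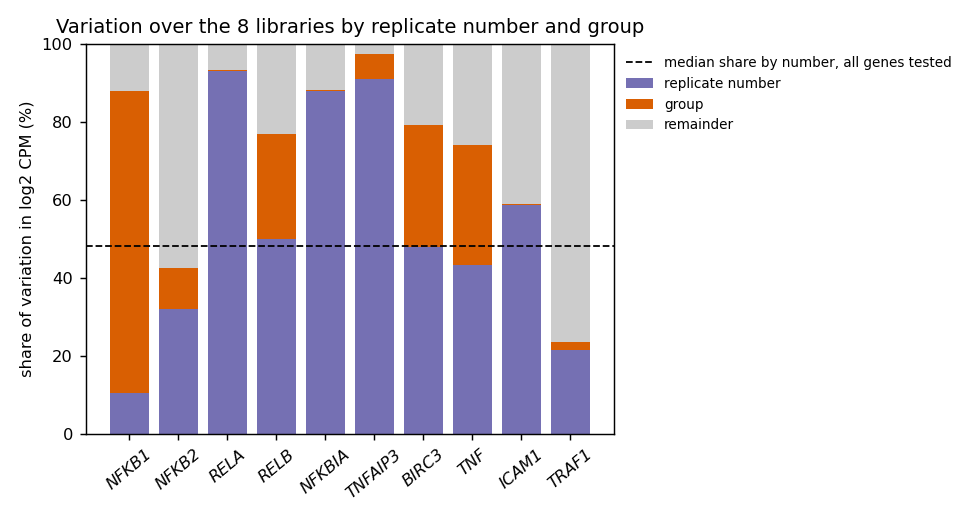
Share of the variation in log2 CPM over the 8 libraries that went with the replicate number, the group and the remainder, in percent, for each gene; the dashed line is the median share of the number over all genes tested. The number takes 88.1% to 93.1% in NFKBIA, TNFAIP3 and RELA, and the group takes 77.5% in NFKB1.

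The rest of the pathway was read from 6 lists of 166 genes in all, of which 139 were tested. On group alone 3 rose and 3 fell (4.32%, beside 3.22% of all genes), and with the block 12 rose and 14 fell (18.7%, beside 12.6%). The groups lay apart in 20 of the 139 (14.4%, beside 11.4% of all genes), and the median log2 fold change was −0.01. None of the 8 other REL and I-kB family genes passed either fit, the lowest p on group alone belonging to NFKBIB (log2 fold change 0.12), NFKBID (−0.30), both I-kB proteins, and NKIRAS1 (0.09), which binds I-kB. With the block the lowest belonged to NFKBIZ (adjusted p = 0.160). Of 42 receptors and adaptors 1 fell on group alone, and with the block 4 rose and 4 fell. The gene that fell was EDAR, the ectodysplasin receptor (log2 fold change −1.67 with SE 0.38, adjusted p = 0.0447 in edgeR), at 1.21 ± 0.147 CPM in CTRL against 0.375 ± 0.247 CPM in miR-155OE (n = 4 each, SD). TNFRSF12A, the receptor of the cytokine TWEAK, fell with the block (−0.39, SE 0.07, adjusted p = 0.00903), and IRAK1, a kinase of interleukin-1 and Toll-like receptors, rose with it (0.33, SE 0.08, adjusted p = 0.0270).

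Among 14 kinases of the pathway none passed on group alone, where 3.22% of all genes did. With the block IKBKE rose and IKBKB fell, where 12.6% of all genes passed. IKBKB encodes the catalytic subunit that marks I-kB for destruction. It was at 24.9, 22.0, 29.8 and 27.4 CPM in CTRL, against 17.4, 21.3, 16.6 and 20.6 CPM in miR-155OE, with groups that did not overlap (log2 fold change −0.46 with SE 0.11, adjusted p = 0.0563 in edgeR, and adjusted p = 0.0295 with the block). IKBKB lies on the short arm of chromosome 8, where the 123 genes at or above 4 CPM had a median log2 fold change of −0.36 and 97.6% were lower, and so does PDLIM2, a negative regulator that ends RELA activity in the nucleus (−0.70, SE 0.12, adjusted p = 0.00690 with the block). On the long arm the 231 genes at or above 4 CPM had a median of 0.275, and 8.23% were lower. Outside chromosome 8, 51% of such genes were lower. RIPK2 (log2 fold change 0.33) and MYC (0.10) of the lists lie on the long arm, and neither passed either fit. The part of these shifts in any of these genes was not tested. MAP3K3 (−0.28, edgeR adjusted p = 0.115) did not pass.

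Of 20 negative regulators 1 rose on group alone: N4BP1, a suppressor of NF-kB signalling, at 115 ± 8.86 CPM in CTRL against 149 ± 13.9 CPM in miR-155OE (n = 4 each, SD; log2 fold change 0.37 with SE 0.08, adjusted p = 0.0438 in edgeR). With the block 2 rose, N4BP1 and the mitochondrial protein NLRX1 (0.26, SE 0.06), and PDLIM2 fell. Of 54 other reported target genes 2 rose and 2 fell on group alone, and 5 rose and 7 fell with the block. Beside both lists, 3.22% of all genes passed on group alone and 12.6% with the block. CCND1, a cyclin of G1 phase, rose from 45.4 ± 4.79 to 72.1 ± 9.55 CPM (log2 fold change 0.67, SE 0.11) and PTGS2, the inducible cyclooxygenase, from 2.83 ± 0.461 to 4.85 ± 0.871 CPM (0.77, SE 0.18; SD, n = 4 each). The cytokine IL1B fell from 253 ± 51.7 to 135.5 ± 18.9 CPM (−0.90, SE 0.14) and BCL2L1, a survival protein, from 369 ± 29.9 to 281 ± 19.2 CPM (−0.39, SE 0.08; SD, n = 4 each). Without 1 library the call of IL1B held in 8 of 8 fits and that of CCND1 in all but the fit without CTRL replicate 3 (adjusted p = 0.0507). EDAR lost its call in 7 of 8, N4BP1 and PTGS2 in 6 of 8 each and BCL2L1 in 5 of 8, each with a highest adjusted p of 0.103 to 0.125. CCND1 overlaps LTO1 and BCL2L1 overlaps the antisense gene ABALON, from whose reads theirs cannot be told apart in the overlap.

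Of 10 genes of the pathway that have been reported as miR-155 targets, none passed on group alone, where 3.22% of all genes did. Their median log2 fold change was −0.08, beside −0.01 over all genes. With the block 1 rose and 2 fell, where 12.6% of all genes passed. INPP5D, a lipid phosphatase with an eight-base site, fell with the block (−0.26, SE 0.05, adjusted p = 0.0127), as did PDLIM2, which had no site in its longest 3′ UTR. IKBKE, a kinase related to those of I-kB, rose with the block (0.42, SE 0.10, adjusted p = 0.0265), and its UTR held 2 sites. Of genes with UTRs of like length, 6.81% (IKBKE) and 9.29% (INPP5D) had a site. The part of the sites in these differences was not tested. SOCS1 (−0.44, edgeR adjusted p = 0.359) and TAB2 (−0.10, adjusted p = 0.518), each with an eight-base site, did not pass on group alone. With the block they did not pass either (SOCS1 −0.45, edgeR adjusted p = 0.0608, and TAB2 −0.10, adjusted p = 0.3205). MYD88 and PELI1, each with the shorter form of the site, passed neither fit. The sites of INPP5D at chr2:233207216-233207245 and of IKBKE at chr1:206496162-206496191 and chr1:206496275-206496304 (plus strands, GRCh38) are shown because these genes differed in opposite directions.

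INPP5D: cggaggggtgaaAGCATTAAgaagcccagt

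IKBKE, first site: gaggcatcctgaAGCATTAgaatgattcca

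IKBKE, second site: caggatgtcgccAGCATTAccttccactgc

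For the members that spanned at least 1 on the log2 scale over the libraries, the genes with the most similar pattern were taken from all tested genes with a mean of at least 1 CPM, by the root mean square difference of centred log2 CPM over the 8 libraries. The nearest to RELB was IRAK2, a kinase of interleukin-1 and Toll-like receptor signalling, at a difference of 0.0900 on the log2 scale, followed by FAM229B (0.133) and IKBKE (0.155). IRAK2 was at 15.2, 12.7, 14.2 and 17.5 CPM in CTRL, against 19.4, 13.5, 18.9 and 28.8 CPM in miR-155OE, with the low miR-155OE library 2 and the high library 4 of RELB. The nearest to TNFAIP3 were WFDC5 (0.120), CDKN1C (0.142) and ZNF675 (0.144), and to BIRC3 they were PPP4R1L (0.0638), FAM45BP (0.0935) and LINC00680 (0.101). For ICAM1 the nearest, POPDC3, FRMD3 and KIF7, differed by 0.290 to 0.300, so no gene followed its few reads closely.

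**Figure D5:**
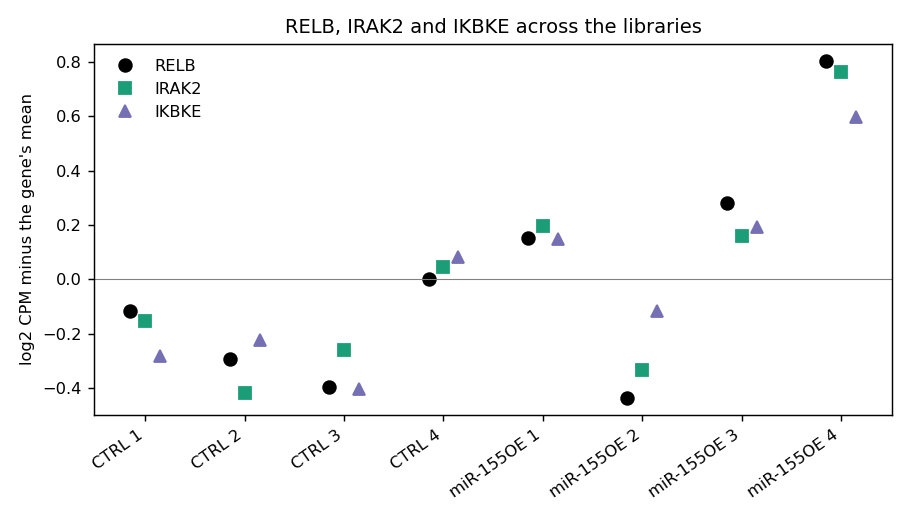
Log2 CPM of RELB, IRAK2 and IKBKE in each library, minus each gene's mean over the 8 libraries. All 3 genes are highest in miR-155OE library 4, and in miR-155OE library 2 all 3 lie under their mean.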

How the data were processed

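RNA-seq of 4 CTRL and 4 miR-155OE libraries was used. Alignment and counting tools are listed as HISAT2 2.0.5 and featureCounts 1.5.0-p3, beside DESeq2 and the build GRCh38, per the submitters' processing notes. Strand setting and annotation release are not given in the sources used here, and 58724 of 58735 genes have the bounds of GENCODE 29. The main table holds read counts by gene, whole numbers that the authors deposited without a scaling step named in the file headers. The authors' second table holds a normalised signal per library, log2 fold changes and p-values with adjusted p-values, per the file headers, and served only for its calls and values of the members.

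Counts were fitted in R 4.3.3 with edgeR 4.0.16 (filterByExpr, TMM, quasi-likelihood F test on group alone, Benjamini-Hochberg adjustment over 15135 genes at 0.05). DESeq2 1.42.0 was an alternative. Each SE and 95% interval restates the F test. CPM uses TMM-scaled library sizes, TPM the deposited gene lengths, and the variation shares log2 CPM with a prior count of 2. Floors of 3 reads cover counting error only. The fits were tried on simulated counts that had no effect of the library number and fold changes larger than that of NFKB1. That trial cannot show how either fit performs where numbers differ or changes are small. Figures used Python 3.11.15 and matplotlib 3.10.9.

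Whether equal numbers go together was checked by correlating each library's deviation from its group's mean with that of its namesake in the other group, over 10267 genes. The correlation was 0.578, 0.497, 0.184 and 0.607 for numbers 1 to 4. The highest with another number was 0.275, 0.267, 0.203 and 0.399 for CTRL libraries 1 to 4. For number 3 the namesake was thus not the closest. The numbers, which come from the sample titles, were taken to pair the samples because each namesake value exceeds 0.1. The values with other numbers exceed 0.1 too, so this limit does not establish the pairing, least of all for number 3. No library repeated another: within groups, chi-square divided by its degrees of freedom was 14.4 to 74.8.

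The members and lists were chosen with earlier results of these data known. Named are the 10 members, up to 3 genes with the lowest p in a list with those past the threshold, and the 3 nearest patterns. SOCS1, TAB2, MYD88, PELI1, RIPK2, MYC, NFKBIZ, the marker and differentiation genes named singly, and the genes of the closing section were chosen after their values were seen.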

Additional observations from a re-analysis of the deposited data

How the results depend on the processing

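With the replicate number as a block the count of genes called went from 488 to 1908, and DESeq2 called 1223 and edgeR with no filter on low counts 927. The pathway list genes called went from 6 to 26, 16 and 15 under the same settings. Without 1 library at a time these counts ran from 125 to 1274 and from 1 to 18, highest without miR-155OE replicate 2. NFKB1 passed with the block (0.27), with DESeq2 (0.27) and without miR-155OE replicate 2 (0.29), and did not pass in the other 7 fits that left out a library (0.24 to 0.30, highest adjusted p = 0.180). ICAM1 changed sign with the block (−0.042). The block changed no other member's call, and DESeq2 size factors in edgeR, no filter and a minimum mean of 1 CPM, which leaves out TNF and ICAM1, changed the call of no member tested. In fits without 1 library, the log2 fold change ran from −0.15 to 0.0047 for NFKB2, −0.042 to 0.036 for RELA, 0.23 to 0.64 for RELB, −0.13 to 0.15 for NFKBIA, −0.034 to 0.52 for TNFAIP3, −0.43 to −0.15 for BIRC3, 0.30 to 0.61 for TNF, −0.27 to 0.32 for ICAM1 and −0.28 to 0.028 for TRAF1. Blocked fits without number 2 of both groups, added after seeing the data, called RELB (0.59) and TNFAIP3 (0.31), and those without numbers 1, 3 and 4 called neither (lowest adjusted p = 0.208 and 0.162). The cause of these changes was not tested. Depth limits TNF and ICAM1, with 98 and 109 reads in all.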

Other observations

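Some genes of the pathway lists, like the members TNFAIP3 and NFKBIA, differed between library numbers. In the joint edgeR test of the number, 18 of the 139 tested pathway list genes were called (12.9%, beside 5.15% of all genes), and 12 of the 18 were highest in number 4 in both groups, as were 27.4% of the 780 genes called by number. G0S2, an inhibitor of lipolysis, was instead lowest in number 4 in both groups, at 14.7, 19.7, 9.13 and 3.97 CPM in CTRL and 8.50, 7.03, 2.95 and 1.45 CPM in miR-155OE (adjusted p = 0.00282). The 18 included NFKBIZ and BCL3, nuclear I-kB proteins, ZC3H12A, which encodes the RNase Regnase-1, and MAP3K8, a kinase of the inflammatory response. ZC3H12A is on the list of negative regulators. Of that list CYLD (edgeR adjusted p = 0.121), TNIP1 (adjusted p = 0.50) and N4BP1 (adjusted p = 0.131), among others, were not called by number. ZC3H12A was at 37.1, 52.5, 44.7 and 75.7 CPM in CTRL and 44.9, 56.6, 43.1 and 93.5 CPM in miR-155OE (edgeR adjusted p = 0.00282). NFKBIZ was at 36.3, 39.5, 55.6 and 66.2 CPM in CTRL and 44.3, 44.8, 52.4 and 81.6 CPM in miR-155OE (adjusted p = 0.00622). MAP3K8 was at 8.70, 10.5, 12.8 and 19.6 CPM in CTRL and 9.14, 9.82, 12.3 and 18.5 CPM in miR-155OE (adjusted p = 0.00418). For MAP3K8 the number took 99.0% of the variation. The cytokine CXCL8 was called as well (adjusted p = 0.0460), with numbers 3 and 4 above 1 and 2 in both groups.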
